A study of Arabidopsis thaliana with 18 samples.

Results

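Overexpression of RTL2 was compared between Arabidopsis thaliana seedlings that carry the construct 35S-RTL2 in the dcl234 mutant and seedlings of the dcl234 mutant without a construct. The libraries were chosen by their titles alone, which gave 3 libraries labelled dcl234_35S-RTL2 below and 3 labelled dcl234, or 6 of the 18 mRNA-seq libraries of the series. Both groups are triple mutants of DCL2, DCL3 and DCL4, which encode Dicer-like enzymes, in the cultivar Columbia (Columbia0), and the dcl234_35S-RTL2 plants carry RTL2 behind the viral 35S promoter, which is active in most plant cells, so the gene is not confined to the cells that normally use it. The labels do not say which alleles were combined or how many transgenic lines were used. Whole seedlings were taken 11 days after germination, without any further treatment, from sterile medium, with days of 18 h light and nights of 6 h at about 22 °C. The 35S-RTL2 and Col-0 groups, with wild-type DCL genes and 3 libraries each, were used to set the same construct side by side in the other background. The labels do not state that the replicates are separate cultures, and the p-values may therefore reflect no more than technical spread between these libraries.

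RTL2 is an RNase III-like protein, a relative of the Dicer-like enzymes that cuts double-stranded RNA. In plants, DCL1 excises microRNAs from hairpin precursors, and DCL2, DCL3 and DCL4 cut long double-stranded RNA into the small interfering RNAs that silence viruses, transposons and selected genes. A plant mutated in those genes keeps DCL1 as its remaining Dicer-like enzyme.

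The rows that fell with the construct hold 5 microRNA precursors, whose sequences are shown because these hairpins are what 4 of the 9 lower rows have in common. The mature microRNAs are given from 5′ to 3′ with the seed, bases 2 to 8, in capitals, as annotated by RefSeq on assembly TAIR10.1. MIR863 and MIR850 lie in 1 row of the count tables with AT4G13495, and MIR860 in 1 row with HDA2 and FC1.
miR163: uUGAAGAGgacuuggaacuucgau
miR822-5p: uGCGGGAAgcauuugcacaug
miR822-3p: uGUGCAAAugcuuucuacagg
miR850: uAAGAUCCggacuacaacaaag
miR863-5p: uUAUGUCUuguugaucucaau
miR863-3p: uUGAGAGCaacaagacauaau
miR860: uCAAUAGAuuggacuauguau
No seed was shared between the 7. MIR163 (AT1G66725, chromosome 1) and MIR822 (AT5G03552, chromosome 5) are counted in rows of their own. Their precursors are 331 and 337 bases long, and 300 bases of each (18 to 317 of MIR163 and 20 to 319 of MIR822) follow with the mature microRNAs in capitals.
MIR163: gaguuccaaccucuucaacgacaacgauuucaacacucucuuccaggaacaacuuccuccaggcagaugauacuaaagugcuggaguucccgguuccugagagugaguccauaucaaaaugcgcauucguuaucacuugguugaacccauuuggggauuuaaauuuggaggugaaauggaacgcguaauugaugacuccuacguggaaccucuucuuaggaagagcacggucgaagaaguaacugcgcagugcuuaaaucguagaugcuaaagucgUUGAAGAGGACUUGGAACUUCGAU
MIR822: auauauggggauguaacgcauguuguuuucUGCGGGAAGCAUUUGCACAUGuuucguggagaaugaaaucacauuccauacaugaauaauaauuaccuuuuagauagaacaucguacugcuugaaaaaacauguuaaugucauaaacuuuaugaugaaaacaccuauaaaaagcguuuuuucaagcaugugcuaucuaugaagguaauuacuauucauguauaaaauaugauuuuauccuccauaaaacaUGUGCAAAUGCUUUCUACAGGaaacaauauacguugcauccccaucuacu
The RefSeq precursors of MIR850, MIR863 and MIR860 are 221, 303 and 126 bases long.

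The 3 dcl234_35S-RTL2 libraries held 24319795 to 27525430 counts and the 3 dcl234 libraries 22564755 to 31791718. Within a group, libraries correlated at r = 0.987 to 0.990 in dcl234_35S-RTL2 and 0.991 to 0.993 in dcl234 (log2 CPM, across rows, which are not independent replicates). Replicate 1 of dcl234_35S-RTL2 stood apart from its group: it correlated at 0.987 and 0.988 with its fellow replicates and at 0.990 to 0.992 with the 3 dcl234 libraries. As for the tissue, the summed level of 18 leaf marker rows ranged from 32019 to 42585 CPM in dcl234_35S-RTL2 and from 33071 to 34196 CPM in dcl234. Root markers (8 rows, 1 at 0 in each group) ranged from 80.7 to 82.3 CPM in dcl234_35S-RTL2 and from 64.7 to 76.2 CPM in dcl234, and floral organ markers (7 rows) from 657 to 666 CPM in dcl234_35S-RTL2 and from 700.2 to 827 CPM in dcl234. Seed markers (10 rows, 2 of them at 0 in dcl234_35S-RTL2 and 4 in dcl234) ranged from 15.7 to 18.4 CPM in dcl234_35S-RTL2 and from 14.9 to 19.1 CPM in dcl234. In whole seedlings, fewer cells of a type and less RNA per cell cannot be told apart.

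RTL2 itself stood at 1761, 2053 and 1674 CPM in dcl234_35S-RTL2 and at 3.15, 3.83 and 2.73 CPM in dcl234, where CPM are counts relative to library size, scaled by the TMM method of edgeR. The log2 fold change was 9.15 (SE 0.21, adjusted p = 1.21e-12, quasi-likelihood test of edgeR, adjusted by Benjamini-Hochberg over all 21343 rows tested, as is every adjusted p below unless DESeq2 is named). The level of RTL2 matched the label in all 6 libraries. The same construct gave 539, 618 and 515 CPM in 35S-RTL2 plants, against 2.93, 2.98 and 2.89 CPM in Col-0.

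The other RNase III genes were measured next. The RTL1 row (AT4G15417), a relative that Arabidopsis seedlings barely use, had 0.182, 0.0834 and 0.637 CPM in dcl234_35S-RTL2 and 0, 0.0445 and 0.627 CPM in dcl234, with no call (adjusted p = 1). DCL1, which shares its row with PPa1 and MIR838, had 145, 152 and 152 CPM in dcl234_35S-RTL2 and 151, 143 and 152 CPM in dcl234. DCL4 had 33.5, 30.6 and 33.6 CPM in dcl234_35S-RTL2 and 31.8, 25.9 and 26.6 CPM in dcl234 (log2 fold change 0.21, SE 0.13, adjusted p = 1). The mutated DCL4 gene was thus still transcribed in both groups, and the groups overlapped, as they did for DCL1 and for the row of DCL2 with AT3G03305 (log2 fold change -0.01). The row that joins DCL3 with AT3G43930 had 1.42, 1.79 and 2.27 CPM in dcl234_35S-RTL2, against 3.75, 2.58 and 3.39 CPM in dcl234. These groups did not overlap, but the difference of -0.83 (SE 0.20) had an adjusted p of 0.334 in edgeR and 0.0486 in DESeq2. In Col-0 the row stood at 19.1 to 21.7 CPM.

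Across the transcriptome few transcripts were called. Of 21343 rows tested, 13 were called at an adjusted p below 0.05, which is 0.0609% of the rows, with 4 higher (0.0187%) and 9 lower (0.0422%) in dcl234_35S-RTL2. The median log2 fold change over all rows was 0.01, and 1157 rows (5.42%) had an unadjusted p below 0.05. DESeq2 called 51 rows, 22 higher and 29 lower, which included all 13. Without replicate 1 of dcl234_35S-RTL2 edgeR called 32, 13 higher and 19 lower, of which 11 were among the 13. The deposited files also carry a number, 1 or 3 for these 6 libraries, whose meaning the labels do not give. The Col-0 libraries carry 2 or 3 and the 35S-RTL2 libraries 1, 2 or 3. Differences between the backgrounds are therefore partly confounded with this number. Within number 1 (2 libraries a group) 4 rows were called, and within number 3 (1 library a group, with the spread taken from the other groups) 2.

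**Figure D1:**
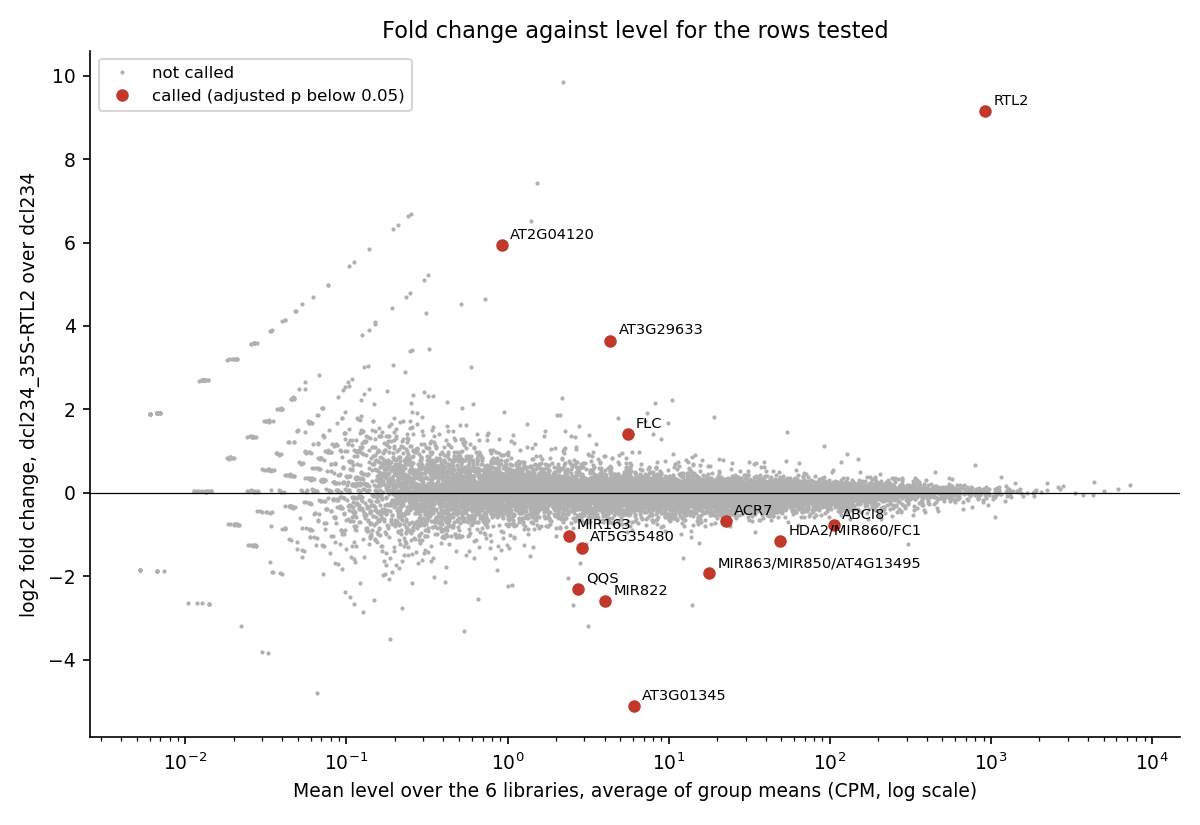
Log2 fold change, dcl234_35S-RTL2 over dcl234, against the mean level over the 6 libraries (CPM, log axis), 1 point per row tested. The 13 called rows are in red and named, with RTL2 at 9.15 far above the others and 9 called rows below 0.

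**Figure D2:**
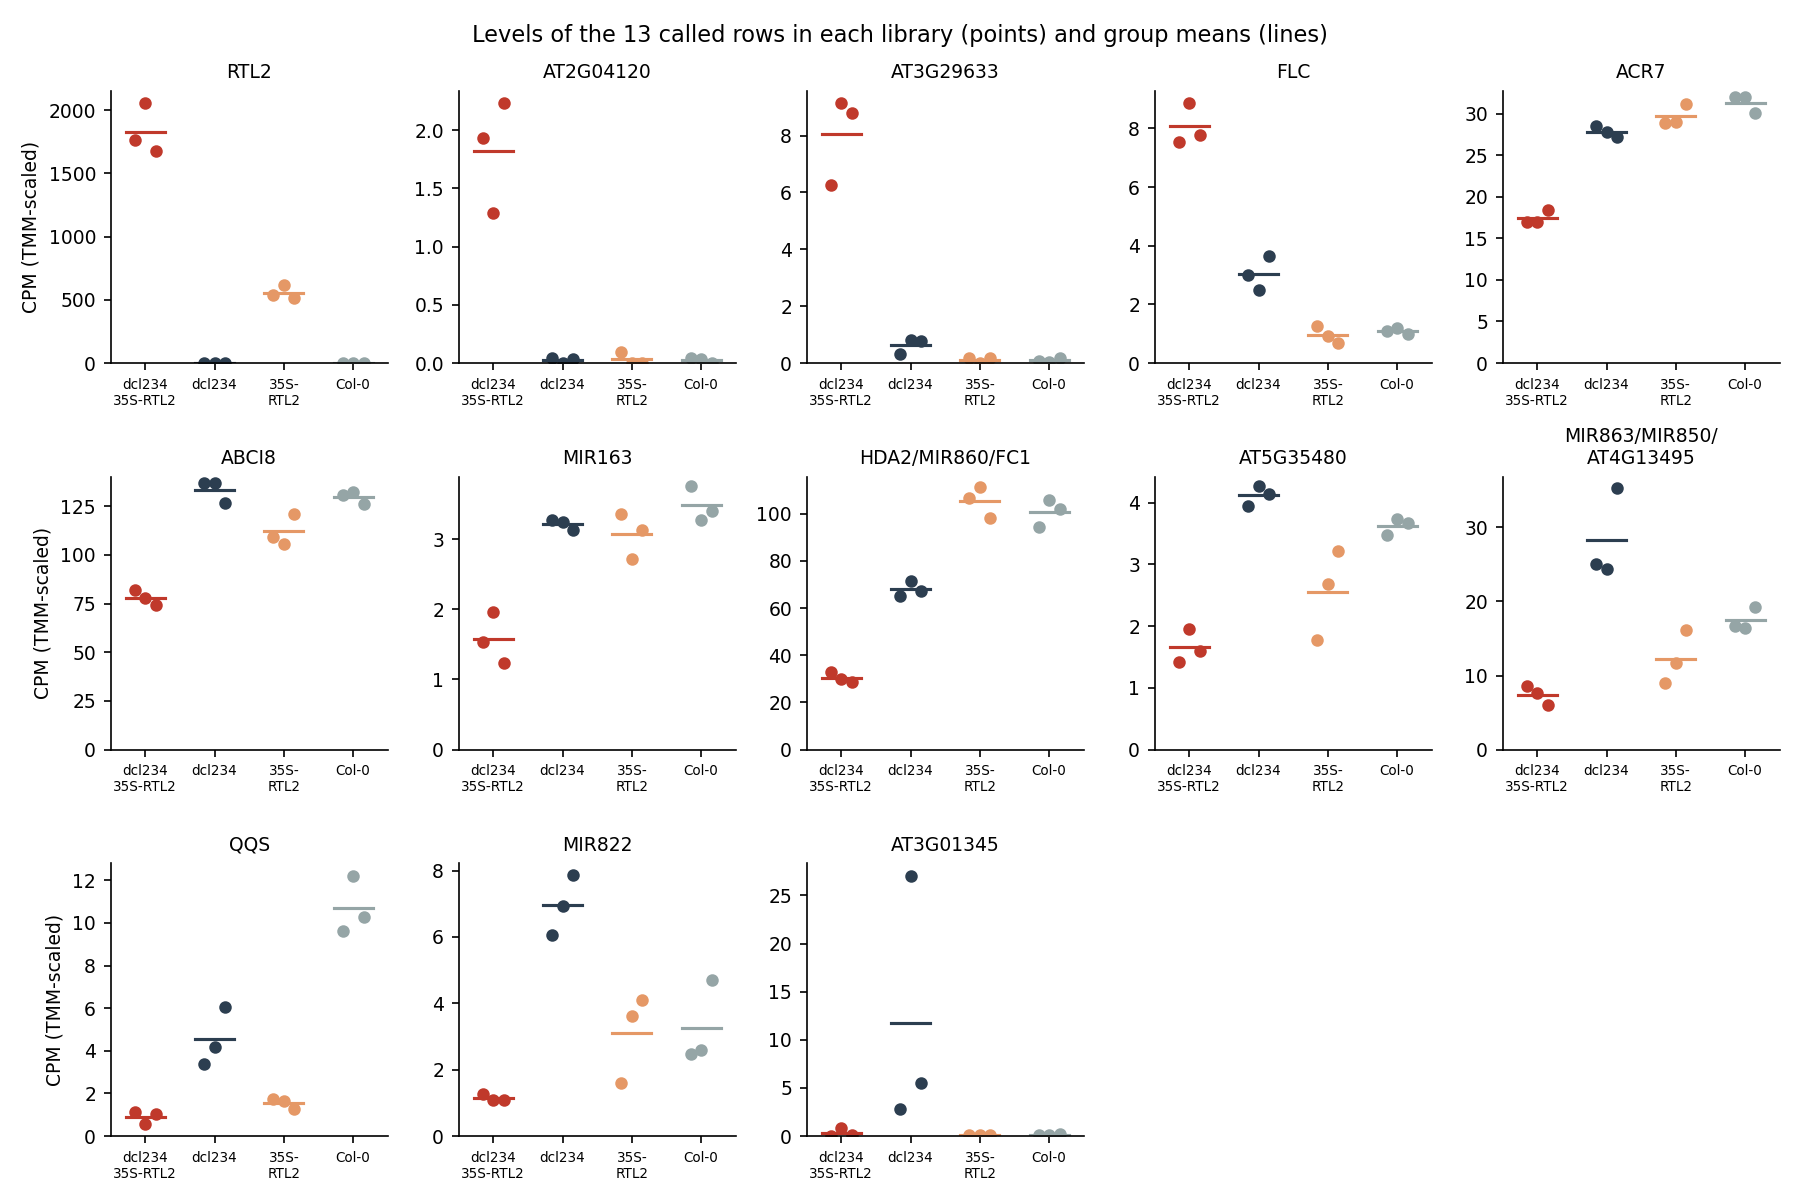
Levels of the 13 called rows (TMM-scaled CPM) in the libraries of dcl234_35S-RTL2, dcl234, 35S-RTL2 and Col-0, 1 panel per row, with points for libraries and lines for group means of 3. In every panel the dcl234_35S-RTL2 and dcl234 points are separate, for example 28.6 to 32.9 and 65.1 to 71.7 CPM for the HDA2/MIR860/FC1 row.

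Rows that hold a microRNA precursor made up 4 of the 9 lower calls, but only 2 of them, MIR822 and MIR163, hold the precursor alone. MIR822, known in Arabidopsis to be cut by DCL4 rather than DCL1, had 1.28, 1.08 and 1.08 CPM in dcl234_35S-RTL2 and 6.06, 6.94 and 7.87 CPM in dcl234. The groups were far apart, and the transcript fell by 2.60 on the log2 scale (SE 0.34, adjusted p = 0.0042, quasi-likelihood test). In Col-0 it stood at 2.47 to 4.70 CPM, between the dcl234_35S-RTL2 and dcl234 levels. Without replicate 3 of dcl234_35S-RTL2 the adjusted p was 0.0593.

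The row that joins MIR863, MIR850 and AT4G13495 had 8.57, 7.63 and 6.05 CPM in dcl234_35S-RTL2 and 25.1, 24.4 and 35.4 CPM in dcl234. Every dcl234_35S-RTL2 library was below every dcl234 library, and the row fell by 1.93 (SE 0.23, adjusted p = 0.00254, quasi-likelihood test), a change that cannot be assigned to one of its genes. Col-0 had 16.4 to 19.3 CPM, again between the levels of the dcl234 groups.

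MIR163, which in Arabidopsis gives a microRNA against methyltransferase transcripts of secondary metabolism, had 1.53, 1.96 and 1.23 CPM in dcl234_35S-RTL2 and 3.27, 3.25 and 3.14 CPM in dcl234. The groups did not overlap, and the log2 fold change was -1.03 (SE 0.17, adjusted p = 0.0485, quasi-likelihood test). This was the least secure of the calls: leaving out replicate 1 or 3 of dcl234_35S-RTL2 gave adjusted p-values of 0.0943 and 0.371, and leaving out replicate 1, 2 or 3 of dcl234 gave 0.182, 0.251 and 0.201.

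The row that joins HDA2, a histone deacetylase, MIR860 and FC1, a ferrochelatase that makes haem, had 32.9, 29.8 and 28.6 CPM in dcl234_35S-RTL2 and 65.1, 71.7 and 67.0 CPM in dcl234. The groups were far apart with little spread within them, and the row fell by 1.16 (SE 0.11, adjusted p = 0.000534, quasi-likelihood test). Its reads cannot be divided between the protein-coding genes and the hairpin of 126 bases. With wild-type DCL genes the row had 98.1 to 111 CPM in 35S-RTL2 and 94.6 to 106 CPM in Col-0.

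Of 175 rows that hold a microRNA precursor, 68 passed the filter on low counts, 42 with the precursor alone and 26 joined with other genes. Among these 68, 4 were called lower (5.88%, against 0.0422% of all rows) and 0 higher, and 9 had an unadjusted p below 0.05 on the lower side (3.14% of all rows did) and 0 on the higher side (2.28% of all rows). DESeq2 also called 4 lower and 0 higher, against 29 lower and 22 higher over all rows. Without replicate 1 of dcl234_35S-RTL2 edgeR called 3 lower and 0 higher, and without its replicate 3 it called 2 lower and 0 higher. The median log2 fold change of the 68 was -0.13, against 0.01 over all rows, and 44 were lower and 24 higher. That median was -0.04 without replicate 1 of dcl234_35S-RTL2, -0.25 without its replicate 3 and -0.03 without replicate 3 of dcl234. The libraries did not overlap for 13 precursor rows on the lower side (7.65% of all rows) and 2 on the higher side (7.05% of all rows).

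No other precursor row was called, and the next 4 by p were all lower in dcl234_35S-RTL2. MIR835, joined with AT1G76065, had 3.35, 3.92 and 3.98 CPM in dcl234_35S-RTL2 and 5.90, 5.79 and 6.34 CPM in dcl234 (log2 fold change -0.68, SE 0.18, adjusted p = 0.481). MIR826a, joined with AT4G03040 and AT4G03038, had 0.401, 0.208 and 0.358 CPM in dcl234_35S-RTL2 and 0.638, 0.935 and 0.502 CPM in dcl234 (-1.06, SE 0.32, adjusted p = 0.595). MIR775 had 0.802, 0.500 and 0.637 CPM in dcl234_35S-RTL2 and 1.12, 1.02 and 1.57 CPM in dcl234 (-0.93, SE 0.31, adjusted p = 0.703). In none of these 3 rows did the libraries overlap. MIR162a, whose microRNA targets DCL1 mRNA, had 10.4, 10.4 and 12.7 CPM in dcl234_35S-RTL2 and 14.2, 13.6 and 14.7 CPM in dcl234 (-0.35, SE 0.15, adjusted p = 0.844), also without overlap. On the higher side MIR319b had the smallest p, with 1.09, 1.29 and 1.83 CPM in dcl234_35S-RTL2 and 0.837, 0.979 and 0.753 CPM in dcl234 (0.72, SE 0.36, adjusted p = 0.98). Larger fold changes, on few counts, were those of MIR419 (1.46, SE 0.75), MIR397a (1.34, SE 1.16) and MIR394a (0.98, SE 0.66).

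**Figure D3:**
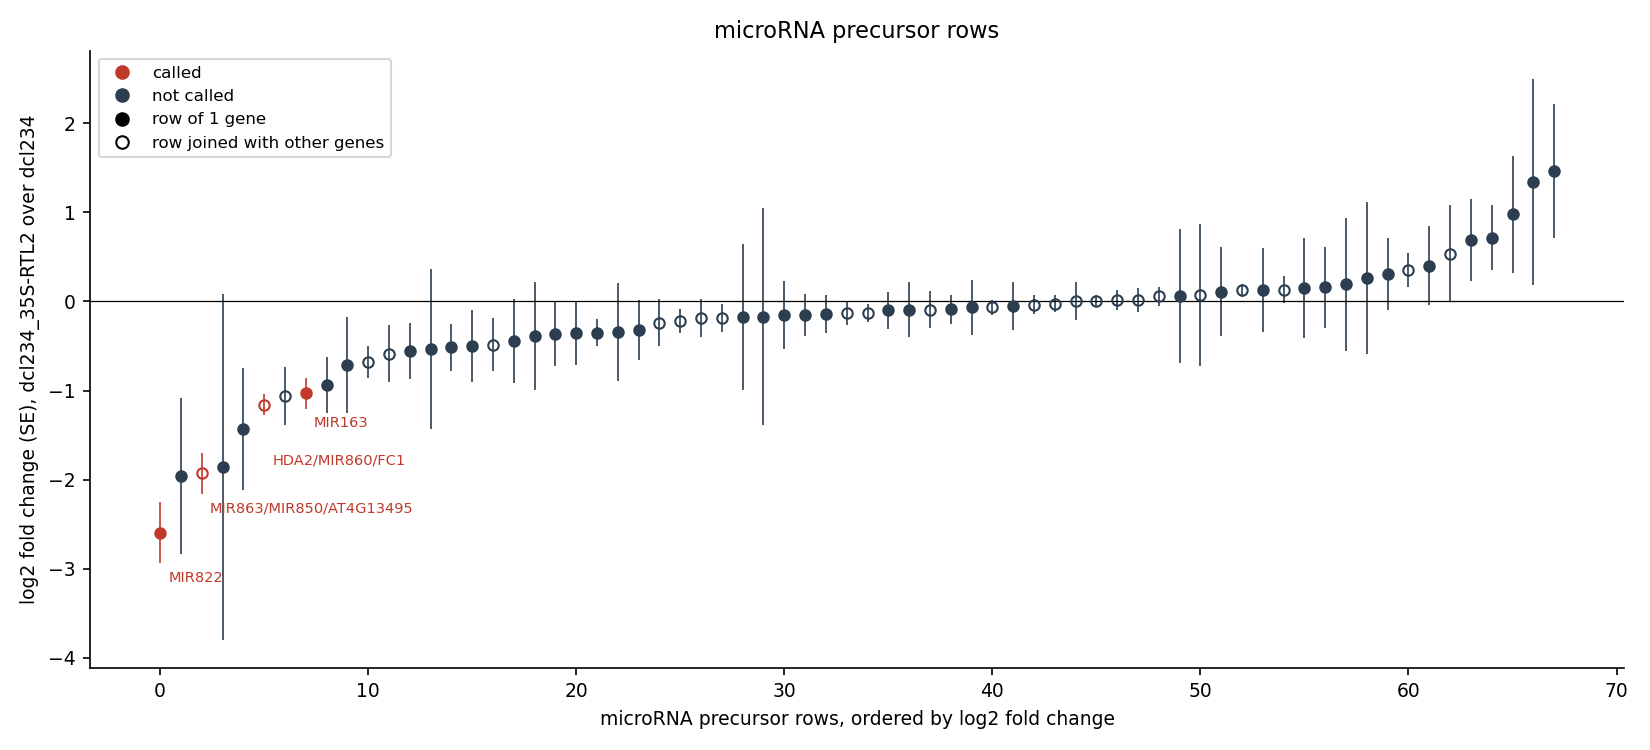
Log2 fold change, dcl234_35S-RTL2 over dcl234, of the 68 rows with a microRNA precursor, ordered by size, with bars of 1 SE, filled points for rows of 1 gene and open points for joined rows. The 4 called rows, in red, lie between -2.60 and -1.03, and no row above 0 is called.

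Of the 5 precursors in called rows, MIR822, MIR163, MIR863 and MIR850 were longer than the usual RefSeq precursor, while MIR860, at 126 bases, was below the median. The median length of the 5 was 303 bases (126 to 337), against 138 (85 to 689) for the other 63 in tested rows and 145 for all 325 RefSeq precursors. Folded with RNAfold 2.7.2, the 5 had a median of 113 base pairs (53 to 140) and the 63 a median of 54 (22 to 214). MIR822 formed 140 pairs, MIR863 128, MIR163 113, MIR850 78 and MIR860 53. These lengths and pairs are a description of 5 hairpins, 3 of which share their rows with other genes.

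None of the microRNA targets examined was called. Methyltransferase transcripts targeted by miR163 were looked up after its value was seen. Of these FAMT had 0.766, 1.04 and 0.478 CPM in dcl234_35S-RTL2 and 1.51, 1.20 and 1.16 CPM in dcl234 (log2 fold change -0.76, SE 0.39, adjusted p = 0.981), and PXMT1 differed by -0.64 (SE 0.57). AT1G66690 differed by -0.04 (SE 0.32) and the row of AT3G44870 with ACD1 by -0.14 (SE 0.08). The transcripts of DC1-domain proteins that miR822 targets, AT5G02330 and AT5G02350, also picked afterwards, differed by 0.87 (SE 0.73) and 0.13 (SE 0.46), with overlapping groups. A list of 58 rows of conserved microRNA targets had 0 calls with edgeR and with DESeq2, 2 rows higher and 3 lower at an unadjusted p below 0.05, a median of -0.02 and a range of -0.56 to 0.54. The lowest were the transcription factor subunits NF-YA2 and NF-YA3, targets of miR169, at -0.56 and -0.55 (adjusted p = 0.673 for both). NF-YA2 had 19.6, 25.8 and 17.2 CPM in dcl234_35S-RTL2 and 22.1, 36.3 and 33.8 CPM in dcl234, and these groups overlapped.

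None of the listed genes of small RNA pathways was called. Of 29 RNA silencing factors, 0 were called with edgeR or DESeq2 and 2 had an unadjusted p below 0.05, HEN1, which methylates small RNAs, at 0.24 (SE 0.10, adjusted p = 0.785) and AGO6, an Argonaute of DNA methylation, at 0.31 (SE 0.13, adjusted p = 0.852). The list had a median of 0.08, with 24 rows higher and 5 lower. The 7 precursor rows of trans-acting siRNAs had a median of -0.03 and 0 calls with either tool. TAS2 was the only one with an unadjusted p below 0.05, at 34.9, 43.5 and 47.1 CPM in dcl234_35S-RTL2 and 49.2, 53.9 and 57.0 CPM in dcl234 (-0.35, SE 0.16, adjusted p = 0.904), without overlap. The 18 targets of these siRNAs had a median of 0.11, the 11 DNA methylation enzymes 0.10 and the 11 RNA decay factors 0.04, with 0 calls in each with either tool. At an unadjusted p below 0.05 stood 2 of the siRNA targets and 0 of the enzymes and decay factors.

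Among loci silenced by DNA methylation, QQS fell. QQS, an orphan gene of Arabidopsis that acts on starch content, had 1.13, 0.584 and 1.04 CPM in dcl234_35S-RTL2 and 3.39, 4.18 and 6.05 CPM in dcl234 (log2 fold change -2.30, SE 0.30, adjusted p = 0.0042, quasi-likelihood test). The groups were well separated, and the adjusted p was 0.0556 with the 6 libraries fitted alone. In the other background it had 1.73, 1.64 and 1.26 CPM in 35S-RTL2 and 9.62, 12.2 and 10.3 CPM in Col-0 (-2.79), and the difference between the backgrounds was 0.49 (adjusted p = 0.897). Low QQS was not particular to the construct. The dcl234 group itself differed from Col-0 by -1.23 (adjusted p = 0.0158). QQS had 2.32, 3.51 and 1.96 CPM in rtl2-1, and 0.724 and 1.23 CPM in 35S-RTL1-Myc, which carries another construct in Col-0. Of the 6 rows of this list, QQS was the 1 call (16.7%, against 0.0422% of all rows called lower), and the median was -0.31. SDC, an F-box gene silenced by methylated repeats, had 0.984, 1.46 and 0.916 CPM in dcl234_35S-RTL2 and 1.99, 2.05 and 1.69 CPM in dcl234 (-0.77, SE 0.36, adjusted p = 0.92).

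The remaining lower calls were protein-coding in RefSeq. ABCI8, the SUFB scaffold on which plastids assemble iron-sulfur clusters, had 81.8, 77.8 and 74.3 CPM in dcl234_35S-RTL2 and 137, 137 and 127 CPM in dcl234. The libraries did not overlap, and it fell by 0.77 (SE 0.08, adjusted p = 0.000989, quasi-likelihood test). ACR7, a protein with ACT domains, which bind amino acids in many enzymes, had 17.0, 17.0 and 18.4 CPM in dcl234_35S-RTL2 and 28.5, 27.8 and 27.2 CPM in dcl234, and fell by 0.67 (SE 0.09, adjusted p = 0.00312). The spread within each group was small beside the gap between them. In the wild-type DCL background the differences were -0.21 for ABCI8 and -0.08 for ACR7.

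AT5G35480, without a name in RefSeq, had 1.42, 1.96 and 1.59 CPM in dcl234_35S-RTL2 and 3.95, 4.27 and 4.14 CPM in dcl234 (-1.31, SE 0.19, adjusted p = 0.00884, quasi-likelihood test). The libraries did not overlap. Its adjusted p was 0.0575 with the 6 libraries fitted alone, 0.0931 without replicate 3 of dcl234_35S-RTL2 and 0.0535 without replicate 2 of dcl234. AT3G01345 was the most variable of the calls, with 0.0365, 0.876 and 0.119 CPM in dcl234_35S-RTL2 and 2.83, 27.0 and 5.52 CPM in dcl234 (-5.12, SE 0.86, adjusted p = 0.0485). Replicate 2 was the highest in both groups, and in Col-0 the gene had at most 0.173 CPM. In rtl2-1, another group of the series, it had 329, 268 and 256 CPM, far above both dcl234 groups. Leaving out replicate 1, 2 or 3 of dcl234_35S-RTL2 gave log2 fold changes of -4.55, -7.16 and -4.73 with adjusted p-values of 0.0984, 0.0775 and 0.386. The adjusted p was 0.229 with the 6 libraries fitted alone and 7.44e-05 in DESeq2.

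On the higher side, FLC, the MADS-box repressor that delays flowering until after winter, had 7.55, 8.88 and 7.77 CPM in dcl234_35S-RTL2 and 2.99, 2.49 and 3.64 CPM in dcl234. Each dcl234_35S-RTL2 library was well above each dcl234 library, and FLC rose by 1.40 on the log2 scale (SE 0.17, adjusted p = 0.00291, quasi-likelihood test). With wild-type DCL genes it had 1.25, 0.929 and 0.691 CPM in 35S-RTL2 and 1.09, 1.21 and 0.992 CPM in Col-0 (-0.21), and the difference between the backgrounds, 1.61, had an adjusted p of 0.199. The dcl234 group itself was 1.47 above Col-0 (adjusted p = 0.00133). In 35S-RTL1-Myc, also with wild-type DCL genes, FLC had 6.91 and 7.05 CPM. FLC was the 1 call among 13 flowering time rows (7.69%, against 0.0187% of all rows called higher), whose median was 0.17. Its relative MAF4 had 2.66, 4.17 and 4.10 CPM in dcl234_35S-RTL2 and 2.39, 2.00 and 2.20 CPM in dcl234 (0.73, SE 0.22, adjusted p = 0.597). MAF5, of the same family, had 3.03, 2.84 and 2.55 CPM in dcl234_35S-RTL2 and 2.15, 1.20 and 1.38 CPM in dcl234 (0.83, SE 0.32, adjusted p = 0.778). Neither overlapped and neither was called. FT and SOC1, which promote flowering and which FLC represses, differed by 0.23 and -0.09.

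AT3G29633, protein-coding and without a name in RefSeq, had 6.27, 9.13 and 8.80 CPM in dcl234_35S-RTL2 and 0.319, 0.801 and 0.784 CPM in dcl234, and rose by 3.65 (SE 0.43, adjusted p = 0.00244, quasi-likelihood test). The groups were separate, and in Col-0 it had at most 0.173 CPM. AT2G04120, a transcribed pseudogene in RefSeq, had 53, 31 and 56 counts in dcl234_35S-RTL2 and 1, 0 and 1 in dcl234 (adjusted p = 0.00291). By depth-scaled counts the ratio of the groups was 72.7, with a 95% interval of 19.7 to 606 that covers counting error only. In 35S-RTL2 and Col-0 the pseudogene had at most 0.0962 CPM.

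Beyond RTL2, QQS and FLC, none of the 26 gene lists gave a call: 23 lists had 0 with edgeR. The glucosinolate and camalexin list stood highest among lists of at least 10 rows, with a median of 0.43 over 15 rows, 12 of them higher, 6 higher and 0 lower at an unadjusted p below 0.05, 7 without overlap between the groups (14.7% of all rows) and 0 called with edgeR or DESeq2. CYP79F1, which starts the core of methionine-derived glucosinolates, had 6.89, 22.6 and 22.3 CPM in dcl234_35S-RTL2 and 6.22, 2.27 and 2.60 CPM in dcl234 (2.22, SE 0.53, adjusted p = 0.338). MAM1, which elongates the methionine side chain, had 12.4, 36.9 and 40.6 CPM in dcl234_35S-RTL2 and 11.96, 6.72 and 6.93 CPM in dcl234 (1.81, SE 0.45, adjusted p = 0.365). In both genes replicate 1 of dcl234_35S-RTL2 lay just above replicate 1 of dcl234 and far below its fellow replicates.

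The row of BCAT4, the first step of that elongation, with IKU2 showed the same split, at 5.32, 17.5 and 17.4 CPM in dcl234_35S-RTL2 and 4.82, 1.91 and 2.23 CPM in dcl234 (2.16, SE 0.50, adjusted p = 0.293). Without replicate 1 of dcl234_35S-RTL2, BCAT4/IKU2 and MAM1 were called, at 2.55 and 2.18 (adjusted p = 0.0402 and 0.0499). Further genes of the pathway were taken up after these values were seen. The isomerase subunits of the elongation cycle IPMI1, with 4.78, 14.2 and 13.9 CPM in dcl234_35S-RTL2 and 4.62, 2.72 and 2.63 CPM in dcl234, and IPMI2, with 4.89, 15.5 and 14.5 CPM in dcl234_35S-RTL2 and 4.11, 2.31 and 2.79 CPM in dcl234, differed by 1.72 and 1.92. Their adjusted p was 0.293 in edgeR for both, and 0.00779 and 0.0083 in DESeq2. GSTF11, FMO GS-OX1, BAT5 and the row of IMD1 with AT5G14210, also looked up, differed by 1.87, 1.87, 1.40 and 0.48. Their adjusted p in edgeR was 0.375, 0.397, 0.531 and 0.428, and DESeq2 called none of them. The groups overlapped for GSTF11 and BAT5.

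Sulfur starvation genes leaned the other way: all 11 rows were lower, with a median of -0.38 and a range of -0.999 to -0.02, and 0 had an unadjusted p below 0.05 or a call with edgeR or DESeq2. GGCT2_1 (AT5G26220), which breaks down glutathione, had 12.9, 4.79 and 5.89 CPM in dcl234_35S-RTL2 and 12.4, 23.5 and 11.7 CPM in dcl234 (-0.999, SE 0.52, adjusted p = 0.987). Here too replicate 1 of dcl234_35S-RTL2 was within the dcl234 range, and the groups overlapped.

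The other lists had medians between -0.17 and 0.29, apart from 4 seed storage rows at 1.52, which at 0 to 0.279 CPM apart from the OLEO1 row rest on few counts. None had a call with edgeR or DESeq2. Salicylic acid defence (21 rows), jasmonate (17), anthocyanin and flavonoid synthesis (17), cold, drought and abscisic acid (16), heat shock (7), hypoxia (9), iron (12) and nucleolar ribosome biogenesis (7) had medians from -0.04 to 0.05. At an unadjusted p below 0.05 stood 1 jasmonate row, 1 anthocyanin row and 0 of the other 6 lists. Photosynthesis (18 rows) had a median of 0.07, the circadian clock (19) -0.11 and phosphate starvation (10) -0.17, with 0 such rows in each. Expansins (9 rows) had a median of -0.17 with 2 such rows, and root markers (5 rows) a median of 0.29 with 1. Floral organ markers (7) had a median of -0.06 with 3 rows lower at an unadjusted p below 0.05, among them SEP3 at 158, 176 and 157 CPM in dcl234_35S-RTL2 and 222, 231 and 190 CPM in dcl234 (-0.38, SE 0.12, adjusted p = 0.592). ACD6, an activator of salicylic acid defence, had 7.40, 12.5 and 8.24 CPM in dcl234_35S-RTL2 and 18.7, 23.1 and 22.7 CPM in dcl234, without overlap, but the difference of -1.20 had an SE of 0.72 and an adjusted p of 1.

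**Figure D4:**
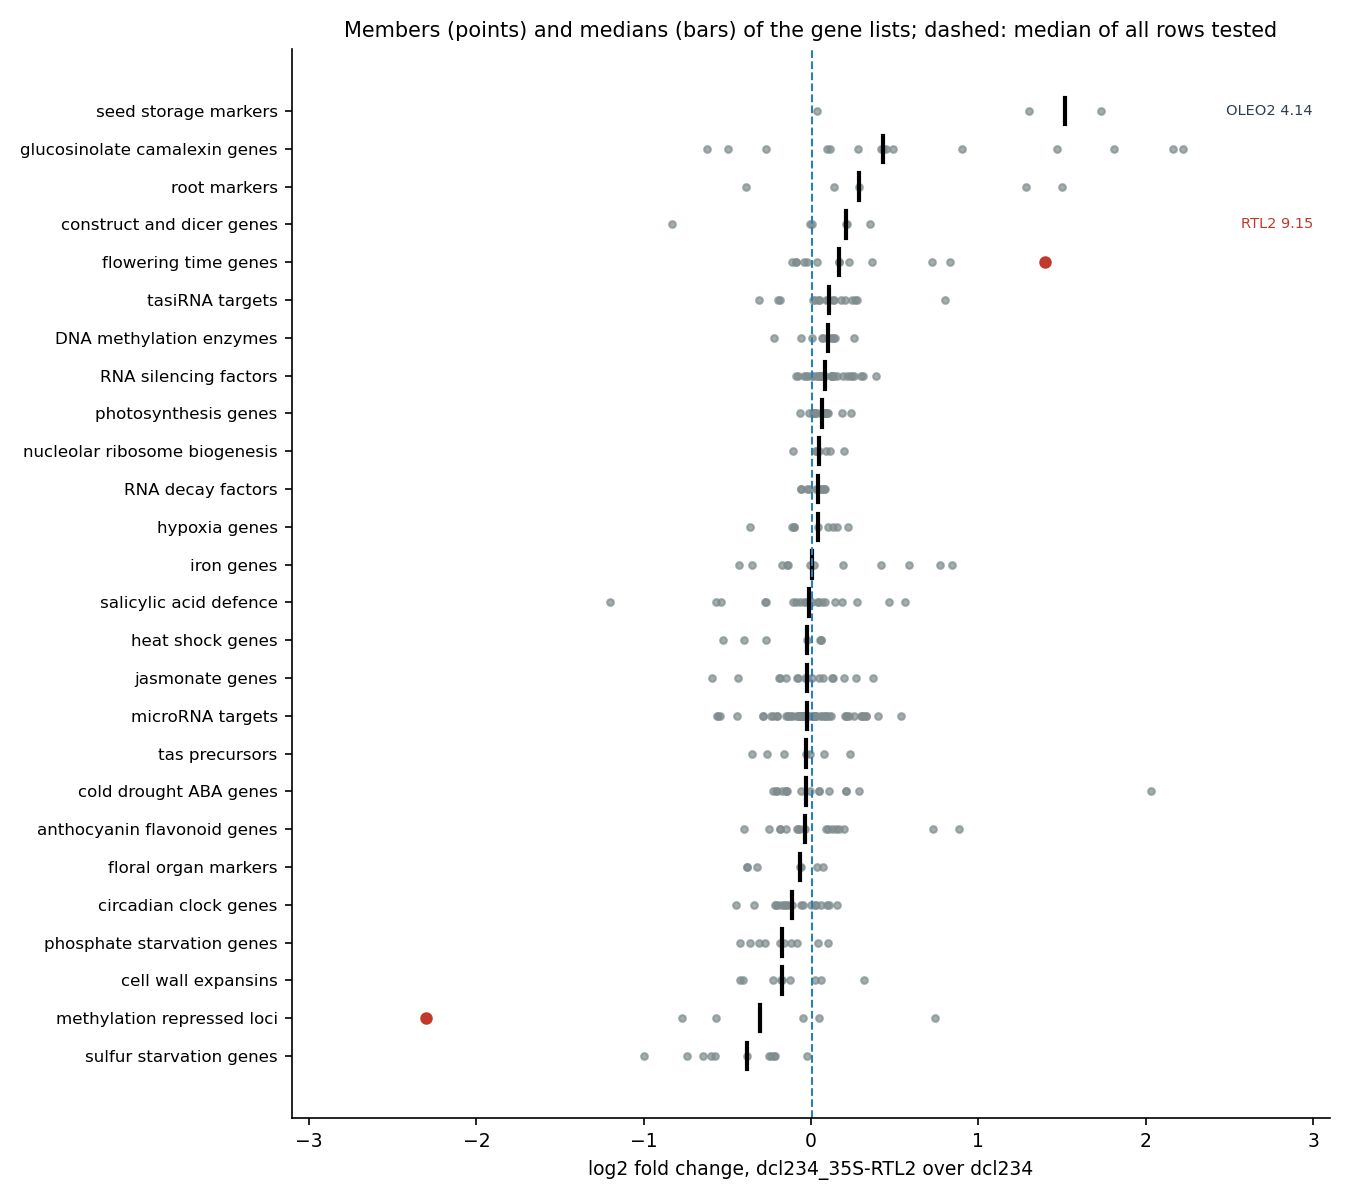
Log2 fold change, dcl234_35S-RTL2 over dcl234, of the members of 26 gene lists (points, called members in red) with the list medians (bars) and the median of all rows tested (dashed line, 0.01). Medians run from -0.38 for sulfur starvation genes to 1.52 for the 4 seed storage rows, and RTL2 and OLEO2, beyond the axis, are given by their values.

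Outside the lists, and picked after the values were seen, SAG12, a cysteine protease of senescing leaves, had 180.3, 164 and 202 CPM in dcl234_35S-RTL2 and 423, 468 and 398 CPM in dcl234 (-1.24, SE 0.24, adjusted p = 0.148). The libraries did not overlap, and the adjusted p was 0.00030 in DESeq2 and 0.00244 when the 6 libraries were fitted alone. ERD1, a subunit of the chloroplast Clp protease, had 265, 222 and 212 CPM in dcl234_35S-RTL2 and 313, 353 and 303 CPM in dcl234 (-0.47, SE 0.09, adjusted p = 0.173). PREP1, a peptidase of mitochondria and plastids, had 198, 184 and 176 CPM in dcl234_35S-RTL2 and 239, 253 and 237 CPM in dcl234 (-0.39, SE 0.07, adjusted p = 0.126). For both, each dcl234_35S-RTL2 library was below each dcl234 library, and DESeq2 gave adjusted p-values of 0.00128 for ERD1 and 2.84e-05 for PREP1.

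A stretch of chromosome 5 stood apart from the rest of the genome, a pattern found after the values were seen and given as a description. Rows with a mean of at least 8 CPM were put in locus order and read in windows of 50, and 9 consecutive windows from AT5G51140 to AT5G59030 had median log2 fold changes of 0.17 to 0.24, whereas the other 271 windows lay between -0.06 and 0.04. Of the 450 rows in the stretch, 408 (90.7%) were higher in dcl234_35S-RTL2, against 48.3% of 13564 rows elsewhere, and 244 (54.2%) were higher without overlap, against 5.59% elsewhere and 7.05% of all rows tested. The median was 0.20 in the stretch. No row of it was called with edgeR, while DESeq2 called 9, all higher, against 22 higher over all rows. Without replicate 1 of dcl234_35S-RTL2 edgeR called 2, both higher, AT5G55180 (0.74, adjusted p = 0.0248) and AT5G51590 (0.51, adjusted p = 0.0262).

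The shift was present in each library. Relative to the mean of dcl234, the median over the stretch was 0.14, 0.25 and 0.21 in dcl234_35S-RTL2 replicates 1, 2 and 3, and -0.05 to 0.01 in the other 15 libraries, the 3 of 35S-RTL2 included. ABCB25, a mitochondrial ABC transporter, had 55.2, 57.4 and 58.2 CPM in dcl234_35S-RTL2 and 47.2, 48.6 and 48.7 CPM in dcl234 (0.24, SE 0.05, adjusted p = 0.293 in edgeR and 0.00779 in DESeq2). The row of MSI1, a chromatin assembly subunit, with FHIT had 93.3, 103 and 97.1 CPM in dcl234_35S-RTL2 and 84.0, 83.0 and 79.7 CPM in dcl234 (0.25, SE 0.06, adjusted p = 0.293). In both rows the libraries did not overlap. Of all rows with an unadjusted p below 0.05 on the higher side, 203 of 487 (41.7%) lie in the stretch, which holds 3.07% of the rows tested. It also holds 10 listed genes, none of them called. Among them are ZTL of the circadian clock (0.16, SE 0.08), CUC2, a target of miR164 (0.54, SE 0.37), RD29B (LTI65) of the drought response (2.03, SE 1.17), and TAS3C, a precursor of trans-acting siRNAs, which had the lower value in dcl234_35S-RTL2 (-0.26, SE 0.42).

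**Figure D5:**
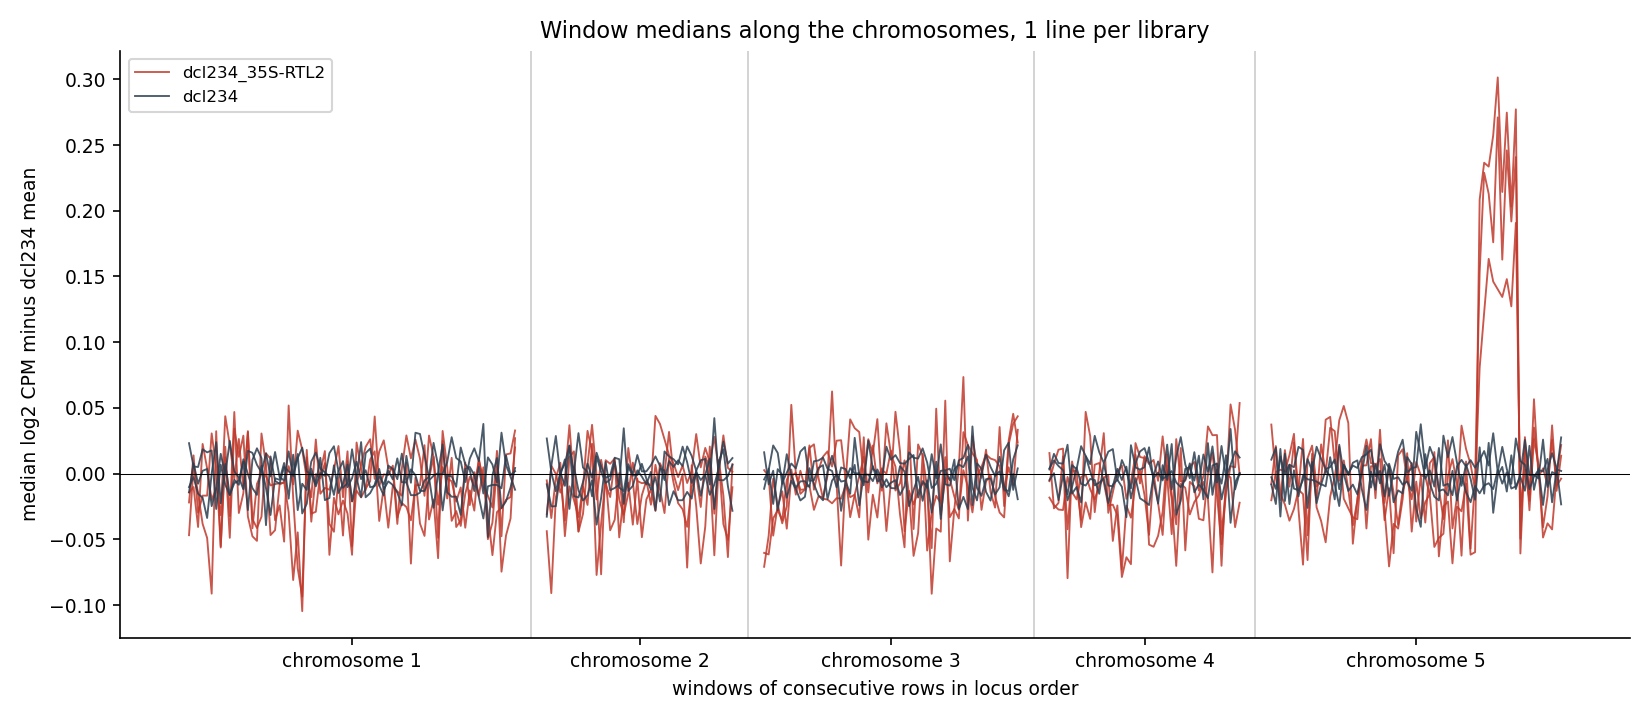
Median log2 CPM minus the dcl234 mean in windows of 50 consecutive rows along chromosomes 1 to 5, 1 line for each of the 3 dcl234_35S-RTL2 and 3 dcl234 libraries. The 3 dcl234_35S-RTL2 lines rise together over 9 windows on chromosome 5 and otherwise stay near 0 with the dcl234 lines.

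The response to the construct was last set against that in plants with wild-type DCL genes, and against 1 dcl234 library with another construct. In 35S-RTL2 against Col-0, 2 rows were called (0.00937% of the rows), RTL2 at 7.57 and QQS at -2.79 (adjusted p = 0.00101, quasi-likelihood test). The difference of the RTL2 effect between the backgrounds, tested as an interaction, was called for 2 rows (0.00937%). Of the 21343 rows, 1123 had an unadjusted p below 0.05, where a share of 5% is expected without any difference. In the HDA2/MIR860/FC1 row the effect was -1.16 in the dcl234 background and 0.06 with wild-type DCL genes, a difference of -1.22 (SE 0.16, adjusted p = 0.0282, quasi-likelihood test). AT1G67105, a non-coding RNA in RefSeq, had 1.09, 0.667 and 0.279 CPM in dcl234_35S-RTL2 and 2.03, 5.83 and 5.46 CPM in dcl234 (-2.68, SE 0.47, adjusted p = 0.0626), and 3.03, 6.43 and 3.70 CPM in 35S-RTL2 and 0.962, 1.13 and 1.08 CPM in Col-0 (2.06). Its values were lower with the construct in one background and higher in the other, without overlap in either. Neither contrast was called on its own, and the 2.06 had an SE of 0.44 and an adjusted p of 0.897. The difference between the backgrounds was -4.74 (SE 0.64, adjusted p = 0.0282). Without replicate 1 of dcl234_35S-RTL2 2 interactions were called, without replicate 1 of dcl234 1, and without any of the other 10 libraries 0. RTL2 itself differed by 1.58 between the backgrounds (SE 0.24, adjusted p = 0.0592). The 1 library of dcl234 with 35S-truncatedDCL1 in place of 35S-RTL2 had 1.22 CPM for MIR822, 1.39 for QQS, 0.142 for AT3G01345 and 0.823 for AT1G67105. These values were nearer to dcl234_35S-RTL2 than to dcl234. ABCI8 (150 CPM), ACR7 (24.0), AT5G35480 (3.80), FLC (3.89), AT3G29633 (0.199), AT2G04120 (0.0284) and RTL2 (4.74) were nearer to dcl234. The rows HDA2/MIR860/FC1 (46.9) and MIR863/MIR850/AT4G13495 (17.7) lay between, and MIR163 (16.6) was above both. The cause was not tested.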

How the data were processed

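The deposited tables hold raw counts of reads per row, which the authors made on TAIR 9 (per the submitters' processing notes). Aligner, counter and strand setting were not given in the sources used here. Of 31362 rows, 1897 join overlapping genes (median share of a library 13.6%), and neither their members nor antisense partners can be told apart. Symbols (32701 of 33378 genes) and sequences are from RefSeq TAIR10.1, matched by locus, so no coordinates are printed.

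Rows were filtered with filterByExpr, which left 21343, scaled by TMM and fitted with edgeR 4.0.16 in R 4.3.3 with a mean for each of 7 groups over 18 libraries. Calls needed an adjusted p (Benjamini-Hochberg) below 0.05. The biological coefficient of variation was 15.1%. SE is the fold change over the root of F. Correlations used log2 CPM with a prior count of 2. The fits were tested on data simulated from the means and spread that edgeR had fitted. DESeq2 made a larger share of false calls there than edgeR, which cannot show which calls are false in the real data.

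Named were RTL1, RTL2, the DCL genes and called rows (up to 12 a direction and 4 a list, at least 1 CPM, no overlap). The 26 lists hold 387 genes, of which 364 were tested, 45 of them in joined rows. The members and lists were chosen with earlier results of these data known. The alternatives were other scaling, no filter, DESeq2 1.42.0, the 6 libraries alone, a replicate block, the file number and leaving out each library.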

Additional observations from a re-analysis of the deposited data

Results flagged for a closer look

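The effect of the RTL2 construct differed between the dcl234 background and the wild-type DCL background in 2 rows by a test of the difference itself. The difference was -4.74 on the log2 scale for AT1G67105, a non-coding RNA, and -1.22 for the row that joins HDA2, MIR860 and FC1 (adjusted p = 0.0282 for both, quasi-likelihood test of edgeR, adjusted by Benjamini-Hochberg). AT1G67105 was lower in 3 of 3 dcl234_35S-RTL2 libraries than in any dcl234 library and higher in 3 of 3 35S-RTL2 libraries than in any Col-0 library. Neither contrast was called on its own by the quasi-likelihood test (adjusted p = 0.0626 in dcl234 and 0.897 with wild-type DCL genes). The HDA2/MIR860/FC1 row was lower in 3 of 3 dcl234_35S-RTL2 libraries, while 35S-RTL2 and Col-0 overlapped. Its level in dcl234 was itself 0.57 below that in Col-0 on the log2 scale, with an adjusted p of 0.00987. The difference was called in 5 of 16 alternative settings for AT1G67105 and in 4 of 16 for HDA2/MIR860/FC1. Neither was called with the file number as a term. RTL2 averaged 1829 CPM in dcl234_35S-RTL2 and 557 CPM in 35S-RTL2, so background and RTL2 level cannot be told apart. The cause was not tested.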

How the results depend on the processing

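Against the 13 calls, other settings gave 11 with median-of-ratios scaling, 13 without a filter, 51 with DESeq2, 10 with the 6 libraries fitted alone, 11 with the file number as a term, 4 within file number 1 and 2 within file number 3. Leaving out 1 library gave 9 to 32, with 32 only without replicate 1 of dcl234_35S-RTL2. For the difference between backgrounds, called in 2 rows, DESeq2 gave 11, the file number as a term 0, and leaving out 1 library 0 to 2. Background and file number are partly confounded, so their effects cannot be fully told apart. Within file number 3 the lone library of a group is taken to vary as the other groups do. The cause of these shifts was not tested. RTL2 passed in all 15 alternatives, and each of the other 12 called rows failed in at least 1 with its direction kept. MIR163 passed in 2 of 15, with adjusted p up to 1. Called precursor rows numbered 0 to 4, all lower, with medians from -0.25 to -0.03. The median of the chromosome 5 stretch ranged from 0.17 to 0.22, and windows of 25 and 100 rows reached 0.24 and 0.20. These last counts and medians were added after seeing the data.

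With the replicate number as a block, 12 rows were called, all among the 13, and 10 with the block and the 6 libraries alone, of which 7 were among the 13. Deviations from the group mean correlated between the groups at r = -0.30, 0.01 and -0.03 for replicates 1, 2 and 3, across rows. Libraries of unlike number gave -0.22 to 0.23. These correlations cannot decide whether the numbers pair the libraries. AT3G01345 was at -5.14 (SE 0.20, adjusted p = 3.28e-08, edgeR) with the block.

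Depth limits the rarest rows: AT3G01345, MIR163, MIR822 and QQS rest on 120 or fewer counts over the 3 dcl234_35S-RTL2 libraries.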
